A study of Homo sapiens with 9 samples.

Results

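The 9 genes described here are NFE2L2, which encodes the transcription factor NRF2, and 8 of its antioxidant target genes, HMOX1, NQO1, GCLC, GCLM, TXNRD1, SRXN1, SLC7A11 and OSGIN1. They were taken as every probe set of the array that carries the symbol of 1 of these genes and no other, which gave 20 probe sets of the 54613 on the array that are not controls, and 9 of the 19775 genes with a probe set of their own. A further probe set, 1567014_s_at, is shared between NFE2L2 and CSNK2A1 and was left out. HMOX1, SRXN1 and OSGIN1 had 1 probe set each, TXNRD1 had 2, and each of the other 5 genes had 3. Where a gene is counted once, its brightest probe set by mean level stands for it.

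RNA was measured in Rh30, a human fusion-positive rhabdomyosarcoma (FP-RMS) cell line that expresses PAX3-FOXO1, on Affymetrix U133 Plus 2.0 arrays. The cells were grown in 3 ways, with 3 arrays for each. Adherent cells grew as a monolayer in RPMI medium with 10% FBS, and spheres were kept for 48 h in Neurobasal medium that held insulin at 50 µg/ml, bFGF at 80 ng/ml and EGF at 40 ng/ml besides 1X B27. Orthotopic xenografts grew in immunodeficient SCID/beige mice. All groups carry PAX3-FOXO1 and all come from the same cell line. For the xenografts, the methods of the study describe adherent cells injected into the calf muscle in PBS, whereas the sample labels describe flank implants in Matrigel from adherent or sphere cultures, so the cells that seeded each tumor cannot be told from these sources. Spheres differ from adherent cells in medium, growth factors and attachment at once, and B27 contains antioxidants, so that these cannot be told apart in any difference given here. The study calls the arrays biological triplicates and says no more of their origin, so p-values measure the spread between these arrays.

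NRF2 is made continuously and is held for degradation by KEAP1, which serves as the sensor of the pathway for oxidants and electrophiles. When KEAP1 is modified, NRF2 persists, pairs with a small MAF protein and binds antioxidant response elements in its target genes, many of which supply glutathione, reduced thioredoxin or NADPH. The pathway is thus governed largely at the level of the NRF2 protein, which these arrays do not measure. In rhabdomyosarcoma, as in other tumors, it is studied as a protection against oxidative damage from metabolism and from chemotherapy.

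The core letters of the antioxidant response element, TGACNNNGC, were searched on both strands in the RefSeq promoter windows of the members, 250 bases before to 50 bases after each listed start site on GRCh38.p14. Windows were found for 7 of the 9 genes, all but HMOX1 and SLC7A11. The letters were present in 2 of the 7 genes, GCLM and TXNRD1, and in 13.3% of all 35116 windows. The matches are shown because they are the stretches of these windows that hold the letters, and they are printed on the strand of the gene with the matched letters in capitals and 10 bases on either side. The coordinates are those of the printed stretch. In GCLM the stretch lay at chr1:93909446-93909474 on the minus strand, and the match in it began 34 bases upstream of the start. In TXNRD1, on the plus strand, the match within chr12:104215670-104215698 began 99 bases upstream of 1 start and that within chr12:104215761-104215789 began 8 bases upstream of the same start. The match within chr12:104286920-104286948 began 102 bases upstream of another TXNRD1 start.
GCLM: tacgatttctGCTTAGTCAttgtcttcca
TXNRD1, 99 bases upstream: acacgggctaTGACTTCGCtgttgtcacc
TXNRD1, 8 bases upstream: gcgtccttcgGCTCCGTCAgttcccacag
TXNRD1, second start: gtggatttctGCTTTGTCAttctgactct
In 3 of the 4 stretches the letters run on the strand opposite to the gene, so that they read from right to left as their complement. The letters of the amino acid response element, TGATGNAA, bound by ATF4, were in no window of the 7 genes and in 3.62% of all windows. A match is a run of letters and not a measured site, and elements farther from the start were not searched.

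The groups were compared with limma on the deposited log2 values, and a gene was called changed at an adjusted p under 0.05. Against adherent cells, spheres had 2 of the 9 genes higher, NFE2L2 and NQO1, and 1 lower, TXNRD1. Over all genes 13.5% were higher and 16.3% lower in spheres, so that the share of members called was of the size seen across the array. The count rests on the brightest probe set. The other NQO1 probe sets were not called (0.01 and 0.25). SLC7A11 was not counted, since 209921_at missed the threshold (1.82, adjusted p = 0.055), although 217678_at (1.87, adjusted p = 0.0138) and 207528_s_at (0.73, adjusted p = 0.000459) passed it. The median log2 difference of the 9 genes was 0.15, beside -0.04 over all genes. In xenografts against adherent cells 5 of the 9 were lower, namely NFE2L2, HMOX1, NQO1, TXNRD1 and SRXN1, and none was higher. Over all genes 12.6% were higher and 14.3% lower, and the median log2 difference was -0.36 for the 9 genes and 0.08 for all. In xenografts against spheres 5 of 9 were lower, namely NFE2L2, HMOX1, NQO1, GCLM and SLC7A11, and none was higher, with 25.7% of all genes higher and 18.3% lower. The median was -0.32 for the 9 genes and 0.13 for all. The counts depended on which probe sets stood for a gene. With the probe sets of each gene averaged, spheres had 1 gene higher and 1 lower than adherent cells. Xenografts had 0 higher and 5 lower against adherent cells, and 1 higher and 5 lower against spheres. Without probe sets of the s, x and a types (as 210519_s_at), 8 genes were counted. Of these, 1 was higher and 1 lower in spheres, 0 and 4 in xenografts against adherent cells, and 1 and 4 against spheres. Both comparisons with adherent cells use the same 3 adherent arrays, and their values are therefore not independent of each other.

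**Figure D1:**
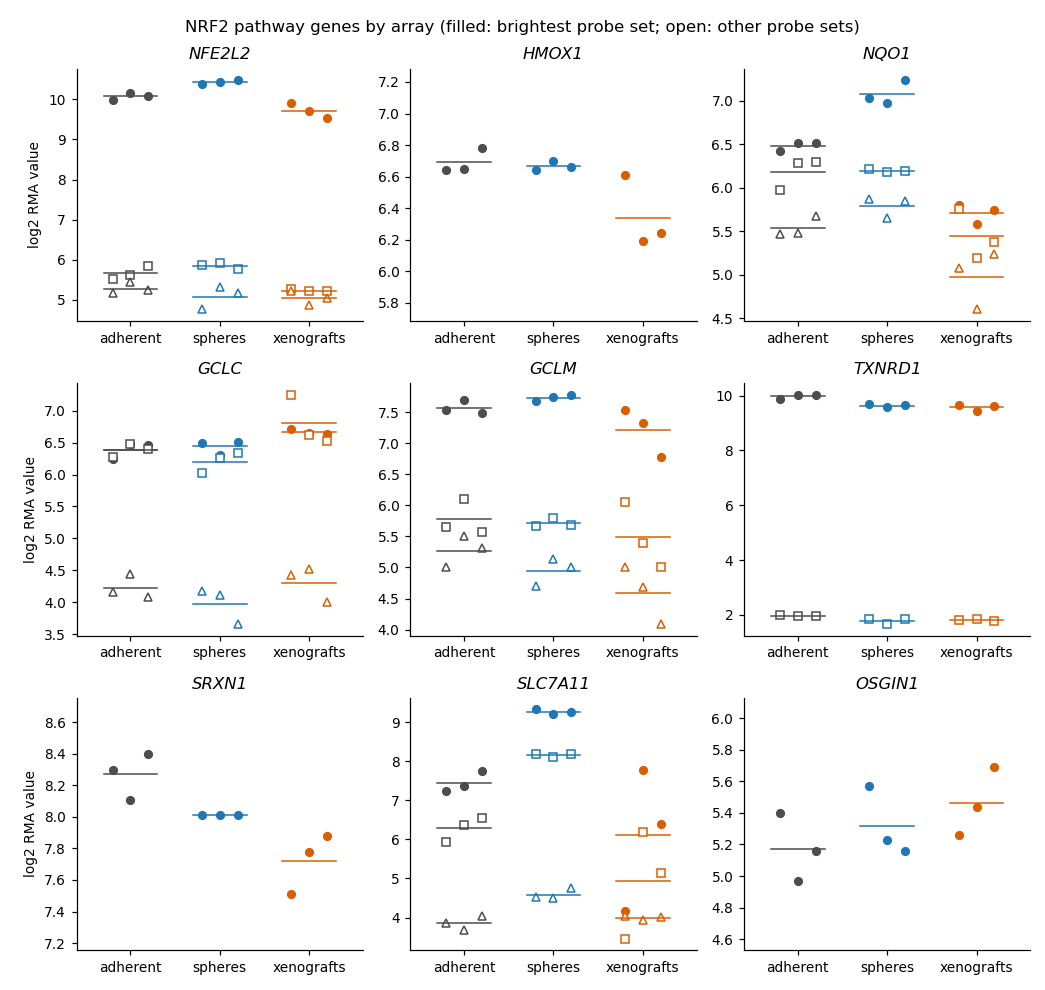
Log2 RMA value (vertical axis) of each of the 9 genes on the 3 adherent, 3 sphere and 3 xenograft arrays; filled circles are the brightest probe set of the gene, open squares and triangles its other probe sets, and bars are group means. NQO1 was highest in spheres and lowest in xenografts at its brightest probe set, and the 3 xenograft arrays of SLC7A11 lay far apart, at 4.17, 7.77 and 6.39.

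At the level of single probe sets, 4 were higher and 1 lower in spheres than in adherent cells, and 26.0% of all probe sets were called in either direction. In xenografts against adherent cells none of the 20 was higher and 9 were lower, with 23.0% of all probe sets called. In xenografts against spheres 1 was higher and 10 lower, with 39.1% called. The split between higher and lower depended on how the arrays were scaled. After quantile normalization of the values, xenografts against adherent cells had 1 member gene higher and 2 lower, and xenografts against spheres had 1 higher and 3 lower. After centring each array on its median, spheres against adherent cells had 1 higher and 1 lower, and xenografts against spheres had 0 higher and 6 lower.

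**Figure D2:**
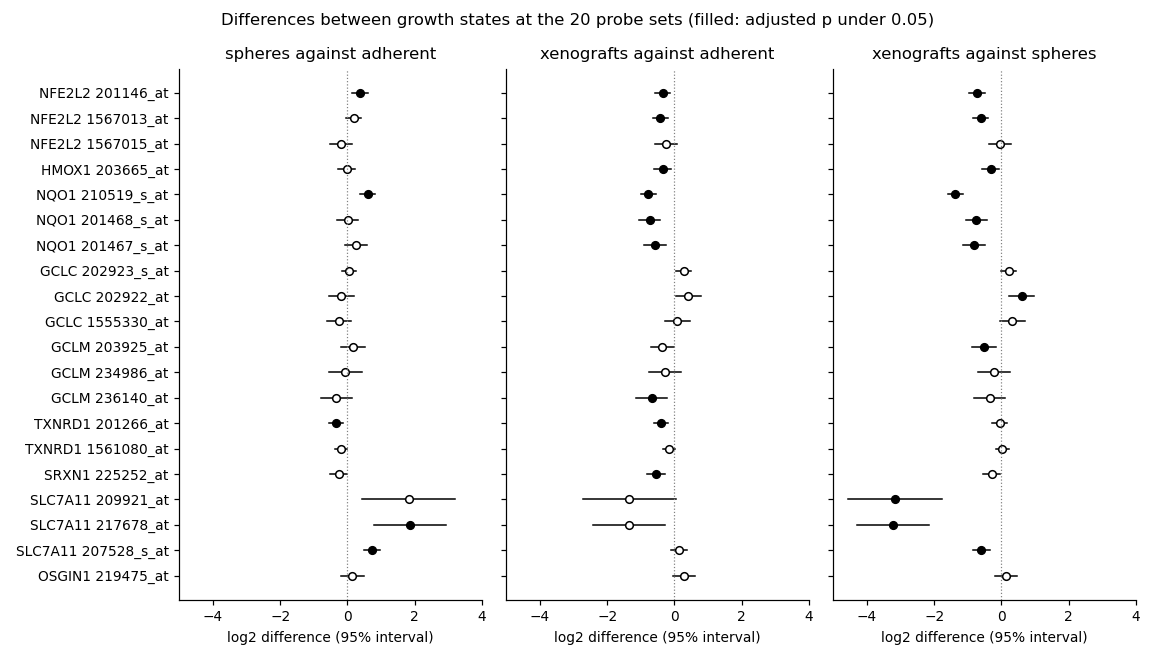
Log2 difference (horizontal axis) with its 95% interval for each of the 20 probe sets in the 3 comparisons; filled points have an adjusted p under 0.05. Of the 20 points, 4 called ones lie to the right and 1 to the left for spheres, and 9 lie to the left for xenografts against adherent cells, with the widest intervals at 2 probe sets of SLC7A11.

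NFE2L2 itself was highest in spheres and lowest in xenografts. Its brightest probe set, 201146_at, read 9.98, 10.15 and 10.07 log2 units on the adherent arrays, 10.38, 10.44 and 10.48 on the sphere arrays and 9.90, 9.71 and 9.53 on the xenograft arrays. The 3 groups did not overlap. The log2 difference was 0.37 in spheres against adherent cells (SE 0.11, 1.29-fold, adjusted p = 0.0261) and -0.35 in xenografts against adherent cells (SE 0.11, adjusted p = 0.0354). Between xenografts and spheres it was -0.72, a level 1.65-fold higher in spheres (adjusted p = 0.000299). The rise in spheres missed the threshold without adherent replicate 1 (adjusted p = 0.104), adherent replicate 3 (0.0747), sphere replicate 2 (0.0704) or sphere replicate 3 (0.0927), and after median centring (0.0605). The fall in xenografts missed it in 11 of 19 alternatives, among them quantile normalization (difference -0.25, adjusted p = 0.0986) and the removal of each adherent array (0.053, 0.128 and 0.0948), of sphere replicate 3 (0.0518), of xenograft replicate 2 (0.0715) or of xenograft replicate 3 (0.101).

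A second NFE2L2 probe set, 1567013_at, read 5.51, 5.63 and 5.84 in adherent cells, 5.86, 5.93 and 5.76 in spheres and 5.26, 5.23 and 5.21 in xenografts. Here the xenograft arrays lay below all others, and those of spheres and adherent cells overlapped. It was lower in xenografts than in adherent cells by a log2 difference of -0.43 (adjusted p = 0.0108, or 0.0542 without adherent replicate 3) and lower than in spheres by -0.62 (adjusted p = 0.000564). The difference of spheres from adherent cells was 0.19, with a 95% interval from -0.03 to 0.41. The third, 1567015_at, passed no test, with log2 differences of -0.20, -0.24 and -0.04. Its values followed those of 201146_at loosely over the 9 arrays (Pearson r 0.23), whereas those of 1567013_at followed them closely (r 0.89). All probes on the array are designed on human sequence, so RNA of the host mouse adds to a value only where it cross-hybridises. In bulk RNA of this kind, fewer cells of a type and less RNA per cell cannot be told apart.

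Among the genes that act on NRF2, KEAP1 was lower in spheres, and its higher level in xenografts was near the threshold. KEAP1 read 8.64, 8.68 and 8.72 in adherent cells, 8.25, 8.11 and 8.10 in spheres and 8.90, 8.92 and 9.19 in xenografts, with no overlap between groups. It was lower in spheres by a log2 difference of -0.53 (adjusted p = 0.00205) and higher in xenografts by 0.32 (adjusted p = 0.0419). The call in xenografts was lost after median centring (0.27, adjusted p = 0.0737), without adherent replicate 1 (0.114), 2 (0.107) or 3 (0.0883), without sphere replicate 2 (0.055) or 3 (0.0603), and without xenograft replicate 3 (0.23, adjusted p = 0.114). Of 12 measured genes of 13 in a list of KEAP1 and partners, 2 were higher and 5 lower in spheres (median log2 difference -0.17), and 2 were higher and 6 lower in xenografts (median -0.29). The shares over all genes were 13.5% higher and 16.3% lower in spheres, and 12.6% higher and 14.3% lower in xenografts. The 2 higher in xenografts were KEAP1 and RBX1, and the count fell to 1 in each of the settings in which KEAP1 lost its call. BTRC, a substrate receptor of the ligase that marks NRF2 independently of KEAP1, was lower in both (-0.95, adjusted p = 7.19e-05, and -0.82, adjusted p = 0.000399). MAFF, a small MAF partner, was higher in spheres by 1.49 (adjusted p = 0.000152) and differed by -0.04 in xenografts (adjusted p = 0.891). NFE2L1, which encodes the related factor NRF1, was higher in spheres by 1.22 (adjusted p = 1.25e-06). BACH2, from a family of repressors that compete for the same elements, was lower in xenografts by -0.94 (adjusted p = 0.00331).

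NQO1 encodes a quinone reductase and is a much used readout of NRF2 activity, and its brightest probe set was highest in spheres and lowest in xenografts. This probe set, 210519_s_at, read 6.42, 6.51 and 6.51 in adherent cells, 7.03, 6.98 and 7.24 in spheres and 5.80, 5.58 and 5.75 in xenografts. No array of 1 group reached the range of another. The log2 difference was 0.60 in spheres (SE 0.10, 1.52-fold, adjusted p = 0.000885) and -0.78 in xenografts (SE 0.10, adjusted p = 0.000283), both against adherent cells. Between xenografts and spheres it was -1.38, a level 2.60-fold higher in spheres (adjusted p = 1.67e-06). These 3 calls held in all alternatives that test the difference, and only the demand for a difference of 2-fold ended the calls against adherent cells.

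The other NQO1 probe sets showed the fall in xenografts and no call in spheres. Probe set 201468_s_at differed by 0.01 in spheres (95% interval -0.30 to 0.32), -0.74 in xenografts against adherent cells (adjusted p = 0.00303) and -0.75 in xenografts against spheres (adjusted p = 0.0014). Its value in spheres turned to -0.04 after quantile normalization and -0.03 after median centring. Probe set 201467_s_at differed by 0.25 in spheres (adjusted p = 0.288), by -0.57 in xenografts against adherent cells (adjusted p = 0.0178, or 0.0771 without adherent replicate 3) and by -0.82 in xenografts against spheres (adjusted p = 0.0012). The 3 probe sets thus differed in their reading of the spheres, and their values over the 9 arrays had r from 0.85 to 0.92 with each other.

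HMOX1 encodes heme oxygenase 1, which breaks down heme and is induced through NRF2 once the repressor BACH1 is released. Its probe set 203665_at read 6.64, 6.65 and 6.78 in adherent cells, 6.64, 6.70 and 6.66 in spheres and 6.61, 6.19 and 6.24 in xenografts. Adherent cells and spheres overlapped and differed by -0.02 (95% interval -0.27 to 0.23). The xenograft mean was lower than that of adherent cells by a log2 difference of -0.35 (SE 0.11, adjusted p = 0.0483) and than that of spheres by -0.32 (SE 0.11, adjusted p = 0.0428). Xenograft replicate 1, at 6.61, lay just under the lowest arrays of the other groups, and the other xenografts lay clearly lower. The call against adherent cells was lost in 15 of 19 alternatives and that against spheres in 14 of 19, including the removal of any adherent or sphere array and of xenograft replicate 2 or 3, where adjusted p ranged from 0.0572 to 0.156. BACH1, the repressor of HMOX1, differed by -0.09 in spheres and by -0.18 in xenografts, and passed no test.

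Glutathione is made from cysteine by glutamate-cysteine ligase, whose catalytic subunit is GCLC and whose modifier subunit is GCLM, and its supply of cysteine is imported as cystine by SLC7A11. In xenografts against adherent cells the brightest probe sets of the 2 subunits differed in opposite directions, and neither difference passed the test. GCLC probe set 202923_s_at read 6.24, 6.47 and 6.46 in adherent cells, 6.50, 6.31 and 6.51 in spheres and 6.72, 6.65 and 6.63 in xenografts. All xenograft arrays lay above all others, but the differences of 0.28 from adherent cells (SE 0.10, adjusted p = 0.0663) and 0.22 from spheres (adjusted p = 0.0953) did not pass the test. After quantile normalization they were 0.40 in both comparisons and passed it (adjusted p = 0.0115 and 0.00655). Probe set 202922_at was higher in xenografts than in spheres by 0.60 (adjusted p = 0.0158, or 0.0565 without sphere replicate 1). Xenograft replicate 1 decided much of this value, which was 0.37 (adjusted p = 0.027) without it. The third, 1555330_at, was called in no comparison with all arrays. Its difference of xenografts from spheres, 0.33, passed in 3 alternatives. These were array weights (0.50, adjusted p = 0.0462), the replicate block (adjusted p = 0.0402) and the removal of xenograft replicate 3 (0.49, adjusted p = 0.0399).

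GCLM probe set 203925_at read 7.53, 7.69 and 7.48 in adherent cells, 7.67, 7.74 and 7.78 in spheres and 7.54, 7.32 and 6.78 in xenografts. The adherent and xenograft arrays overlapped, and xenograft replicate 3 lay apart from the other xenografts. The log2 difference was 0.16 in spheres against adherent cells (95% interval -0.19 to 0.51) and -0.36 in xenografts against adherent cells (adjusted p = 0.132). In xenografts against spheres it was -0.52 (SE 0.16, adjusted p = 0.0245), and it fell to -0.30 (adjusted p = 0.0522) without xenograft replicate 3. After quantile normalization it was -0.38 (adjusted p = 0.0841). Without sphere replicate 2 or 3 the adjusted p was 0.0646 and 0.0755, and without xenograft replicate 1 the difference from adherent cells passed at -0.52 (adjusted p = 0.0264), whereas without xenograft replicate 3 it was -0.14 (adjusted p = 0.397). Probe set 236140_at was lower in xenografts than in adherent cells by -0.68 (adjusted p = 0.0383), though its arrays overlapped. That call was lost without adherent replicate 2 (adjusted p = 0.146) or 3 (0.106), sphere replicate 3 (0.0551), or xenograft replicate 2 (0.0611) or 3 (0.112). Probe set 234986_at was called in no comparison, and without xenograft replicate 1 its xenograft level was lower than that of adherent cells by -0.57 (adjusted p = 0.0284). With all arrays that difference was -0.29, and without xenograft replicate 3 it was -0.05 (adjusted p = 0.894).

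SLC7A11, the cystine and glutamate exchanger also known as xCT, had the widest range of the 9 genes, and much of it was between xenografts. Probe set 209921_at read 7.23, 7.37 and 7.75 in adherent cells, 9.33, 9.22 and 9.26 in spheres and 4.17, 7.77 and 6.39 in xenografts. All sphere arrays lay above all others, while xenograft replicate 2 stood at the level of adherent cells and xenograft replicate 1 far below it. Against the mean of adherent cells, xenograft replicates 1, 2 and 3 were at 0.102, 1.24 and 0.479 times its level. The SD of the 3 xenografts was 1.82 log2 units, the largest of the 19775 genes, with 1.74 for the next and 32 genes above 1. The SD was 0.27 in adherent cells and 0.06 in spheres.

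In spheres against adherent cells the log2 difference at 209921_at was 1.82 (SE 0.63, 3.53-fold), and with an adjusted p of 0.055 it did not pass the test when all 9 arrays shared 1 estimate of the spread. It passed at 1.18e-05 when only the adherent and sphere arrays were fitted, at 0.000547 without xenograft replicate 1 and at 0.00829 without xenograft replicate 2. Probe set 217678_at read 5.94, 6.37 and 6.56 in adherent cells, 8.18, 8.11 and 8.18 in spheres and 3.46, 6.19 and 5.13 in xenografts, in the same order of arrays. There the difference in spheres was 1.87 (SE 0.49, 3.65-fold, adjusted p = 0.0138), with an adjusted p of 0.0573 without adherent replicate 1. The dim probe set 207528_s_at was also higher in spheres, by 0.73 (adjusted p = 0.000459). It read 4.03, 3.93 and 4.02 in xenografts and so did not show the spread between them that the other 2 did.

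The xenograft level of SLC7A11 was lower than that of spheres at all 3 probe sets, by log2 differences of -3.16 (adjusted p = 0.00215), -3.23 (adjusted p = 0.000313) and -0.60 (adjusted p = 0.00153) at 209921_at, 217678_at and 207528_s_at. The mean of spheres was 8.95-fold above that of xenografts at 209921_at. Without xenograft replicate 1 this difference was -2.19 (adjusted p = 0.000317), and without xenograft replicate 2 it was -3.99 (adjusted p = 0.000112). The methods' test per probe set, which uses each probe set's own spread, did not call it after adjustment at 209921_at (adjusted p = 0.117) or 217678_at (adjusted p = 0.0666). Against adherent cells the xenograft difference was -1.34 at 209921_at (95% interval -2.73 to 0.04, adjusted p = 0.148), -1.36 at 217678_at (adjusted p = 0.0656) and 0.14 at 207528_s_at (adjusted p = 0.409). At 209921_at it was -0.37 (adjusted p = 0.402) without xenograft replicate 1 and -2.17 (adjusted p = 0.00897) without xenograft replicate 2, and at 217678_at -0.63 (adjusted p = 0.104) and -1.99 (adjusted p = 0.00407).

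SLC3A2, the heavy chain that pairs with SLC7A11 to form the exchanger, rose in spheres and did not share the spread of SLC7A11 between xenografts. It read 7.75, 7.89 and 8.12 in adherent cells, 9.42, 9.44 and 9.30 in spheres and 7.74, 8.01 and 8.10 in xenografts. Its log2 difference was 1.46 in spheres (SE 0.12, adjusted p = 5.17e-06) and 0.03 in xenografts (adjusted p = 0.884). SLC7A11 and SLC3A2 are also known targets of ATF4, a factor that answers amino acid shortage and endoplasmic reticulum stress. An ATF4 list of 10 genes was chosen with results of these data known and includes SLC3A2. In spheres 7 of the 10 were higher and 1 lower (median log2 difference 1.51), beside a median of -0.04 for all genes. The part of ATF4 or of NRF2 in the SLC7A11 values was not tested. Of all genes 13.5% were higher and 16.3% lower in spheres. The 1 lower gene, PHGDH at -0.45, lost its call after quantile normalization and without adherent replicate 1 or 3 or sphere replicate 2 or 3. TRIB3, a pseudokinase induced by ATF4, was higher in spheres by 3.18 (adjusted p = 1.1e-07), and DDIT3, the stress factor CHOP, by 3.01 (adjusted p = 3.79e-07). ATF3 was higher by 1.68 (adjusted p = 6.69e-07), and SESN2, a stress-induced sestrin that is also an NRF2 target, by 2.27 (adjusted p = 3.18e-05).

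In xenografts 3 genes of the ATF4 list were higher than in adherent cells and none was lower (median 0.18). The shares over all genes were 12.6% higher and 14.3% lower. DDIT3 was higher by 1.19 (adjusted p = 0.000492) and TRIB3 by 0.50 (adjusted p = 0.0309), and CHAC1, which degrades glutathione, by 1.30 (adjusted p = 0.00541). Across the xenografts, SESN2 read 6.21, 7.33 and 7.21, ASNS, the asparagine synthetase, 8.87, 9.89 and 9.46, and CHAC1 6.16, 7.55 and 7.25. Xenograft replicate 1, the lowest for SLC7A11, was thus the lowest of the 3 for these genes also, by smaller steps. Of the 7 fibroblast markers, this array had the highest xenograft level of 3 and not of the other 4. LUM read 8.31, 6.47 and 6.56 in the xenografts, COL1A2 6.54, 5.73 and 5.87, and COL3A1 10.90, 10.47 and 9.66. In the opposite direction, PDGFRA read 8.07, 8.95 and 8.97 and COL1A1 7.61, 7.70 and 7.64, while DCN read 5.77, 5.51 and 6.03. The part of fibroblast RNA in the SLC7A11 values was not tested.

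**Figure D3:**
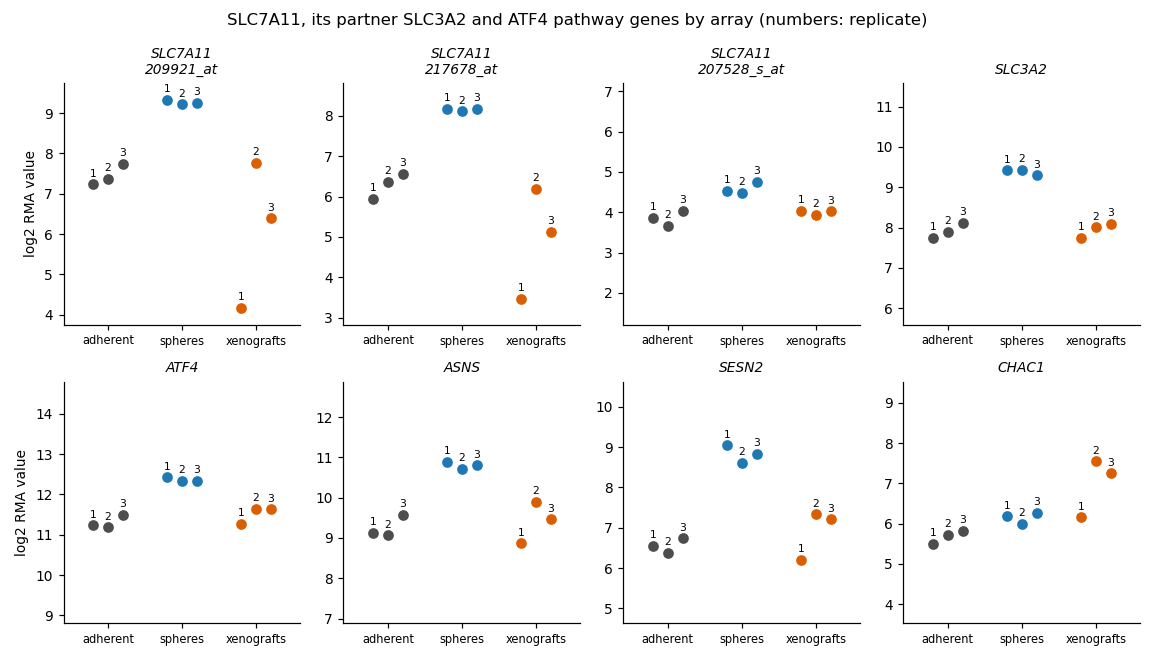
Log2 RMA value (vertical axis, a separate scale in each panel) of the 3 SLC7A11 probe sets, SLC3A2 and 4 genes of the ATF4 pathway on each array, with the replicate number above each point. The sphere arrays of 209921_at and 217678_at sit close together above all others, and their xenograft arrays run from 4.17 to 7.77 and from 3.46 to 6.19.

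TXNRD1 was lower in both spheres and xenografts than in adherent cells. It encodes the cytosolic thioredoxin reductase, a selenoprotein that returns oxidised thioredoxin to its active form, and its windows hold the letters shown above. Probe set 201266_at read 9.87, 10.02 and 10.04 in adherent cells, 9.68, 9.59 and 9.66 in spheres and 9.67, 9.45 and 9.64 in xenografts. Adherent arrays lay above all others, and spheres and xenografts overlapped. The log2 difference was -0.33 in spheres (SE 0.10, adjusted p = 0.0229) and -0.39 in xenografts (SE 0.10, adjusted p = 0.0134), both against the same adherent arrays, and -0.05 between xenografts and spheres (95% interval -0.27 to 0.16, and 0.01 after quantile normalization). The call in spheres was lost without adherent replicate 2 (adjusted p = 0.0807) or 3 (0.0921) or sphere replicate 2 (0.0805) or 3 (0.0596). The call in xenografts was lost without adherent replicate 2 (0.0552) or 3 (0.06) and after quantile normalization (0.0545). The second TXNRD1 probe set, 1561080_at, had a mean of 1.845, above only 0.1% of probe sets, and passed no test.

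SRXN1 encodes sulfiredoxin, which restores overoxidised peroxiredoxins. Its probe set 225252_at read 8.30, 8.11 and 8.40 in adherent cells, 8.01, 8.01 and 8.01 in spheres and 7.51, 7.78 and 7.88 in xenografts, so that the 3 groups lay in descending order with no overlap. Xenografts were lower than adherent cells by a log2 difference of -0.55 (SE 0.11, adjusted p = 0.00542), a call that held with every array left out in turn. Spheres differed from adherent cells by -0.26 (95% interval -0.51 to -0.01, adjusted p = 0.137) and xenografts from spheres by -0.29 (adjusted p = 0.0649), neither past the threshold. The latter was -0.37 (adjusted p = 0.0345) without xenograft replicate 3 and -0.18 (adjusted p = 0.189) without xenograft replicate 1. SRXN1 thus did not share the higher level of NFE2L2 and NQO1 in spheres.

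OSGIN1, a growth inhibitor induced by oxidative stress, was called in no comparison. Probe set 219475_at read 5.40, 4.97 and 5.16 in adherent cells, 5.57, 5.23 and 5.16 in spheres and 5.26, 5.44 and 5.69 in xenografts, and the groups overlapped. Its log2 differences were 0.15 in spheres (95% interval -0.18 to 0.48), 0.29 in xenografts (-0.04 to 0.62) and 0.14 between them (-0.19 to 0.47). With 3 arrays a group, the intervals allow differences of up to these bounds.

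Further genes of the network were counted in 7 lists, chosen, like the members, with results of these data known, and including the KEAP1 and ATF4 lists above. Across all genes 13.5% were higher and 16.3% lower in spheres, and 12.6% were higher and 14.3% lower in xenografts. In spheres 5 of 23 genes of glutathione synthesis and use were higher and 5 lower (median log2 difference 0.00), whereas in xenografts 11 were higher and 2 lower (median 0.24). The count of 5 lower in spheres was 3 after quantile normalization and without adherent replicate 3 or sphere replicate 1, and the count of 2 lower in xenografts was 1 after quantile normalization. CHAC2, which breaks down glutathione, was lower in spheres by -1.43 (adjusted p = 1.11e-05). GLRX2, a mitochondrial glutaredoxin, was higher in spheres by 1.50 (adjusted p = 4.18e-07) and in xenografts by 0.45 (adjusted p = 0.00293). Of 9 superoxide and peroxide enzymes, none was higher and 2 were lower in spheres (median -0.09). Leaving out xenograft replicate 1 gave 1 higher, and leaving out adherent replicate 1 or 2 or sphere replicate 3 gave 1 lower. In xenografts 6 of these enzymes were higher and 1 lower (median 0.32). GPX4, the peroxidase that uses glutathione to repair oxidised lipids, was lower in spheres by -0.78 (adjusted p = 0.000104) and higher in xenografts by 0.48 (adjusted p = 0.00468). GPX7 and SOD3 were higher in xenografts by 0.84 (adjusted p = 0.001) and 0.50 (adjusted p = 0.00263), and GPX3 was lower by -0.54 (adjusted p = 0.00876). SOD3 was dim, with means of 4.39 in adherent cells and 4.89 in xenografts, beside a median level of 4.84 for all probe sets.

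Of 12 measured genes of 14 in the thioredoxin system, 2 were higher and 4 lower in spheres (median -0.15), and 3 were higher and 3 lower in xenografts (median -0.06). Here too the shares over all genes were 13.5% higher and 16.3% lower in spheres, and 12.6% higher and 14.3% lower in xenografts. The 3 higher in xenografts became 0 without adherent replicate 1 and 1 without adherent replicate 2 or xenograft replicate 2 or 3, and the 3 lower became 1 without adherent replicate 2 and after quantile normalization. TXNIP, which binds and restrains thioredoxin, was higher in spheres by 1.38 (adjusted p = 4.02e-06). The peroxiredoxin PRDX2 was lower in spheres by -1.37 (adjusted p = 2.22e-05) and higher in xenografts by 0.51 (adjusted p = 0.0209), and TXNRD2, the mitochondrial reductase, was lower in both (-1.22, adjusted p = 7.13e-05, and -1.01, adjusted p = 0.000541). Of 8 measured genes of 9 in NADPH supply, 2 were higher and 3 lower in spheres (median -0.18), and 2 were higher and 1 lower in xenografts (median -0.11, and 2 lower after median centring). The malic enzyme ME1 was higher in xenografts by 1.75 (adjusted p = 8.84e-06), and PGLS, of the pentose phosphate pathway, by 0.92 (adjusted p = 6.31e-05). ME1 was dim, with means of 3.34 in adherent cells and 5.09 in xenografts, where the median level of all probe sets was 4.84. The part of mouse RNA in its value was not tested. TKT, of the same pathway, was lower in spheres by -1.15 (adjusted p = 3.6e-05). IDH1 was higher in spheres by 0.96 (adjusted p = 3.06e-05) and lower in xenografts by -0.57 (adjusted p = 0.0021).

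Of 22 measured genes of 24 in a list of other NRF2 targets, 5 were higher and 3 lower in spheres (median -0.04), and 4 were higher and 3 lower in xenografts (median 0.00). Across all genes 13.5% were higher and 16.3% lower in spheres, and 12.6% and 14.3% in xenografts. The counts of lower genes were thus of the size seen across the array. The 5 became 3 without adherent replicate 1 or 2 or sphere replicate 1 or 2. The 3 lower in spheres became 1 without adherent replicate 2 or 3 or sphere replicate 2 or 3 and 5 without xenograft replicate 1, and the 4 higher in xenografts became 1 without adherent replicate 3. BLVRB, a biliverdin reductase, was higher in spheres by 1.56 (adjusted p = 2.81e-06), and the transporter ABCC4 was lower by -0.75 (adjusted p = 0.000389). PIR, which encodes pirin, was lower in spheres by -0.61 (adjusted p = 0.0265). AKR1B10, an aldo-keto reductase, was higher in xenografts by 1.40 (adjusted p = 1.46e-06), reading 4.64, 4.73 and 4.75 there and 3.24, 3.34 and 3.34 in adherent cells. All of these readings lie below the median level of all probe sets, 4.84.

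**Figure D4:**
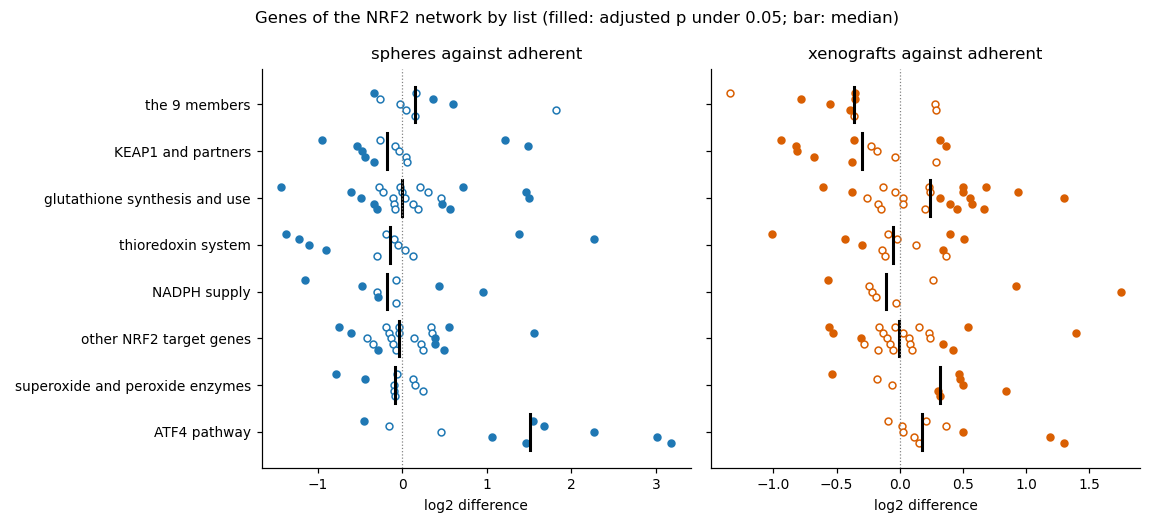
Log2 difference against adherent cells (horizontal axis) of each gene of the 9 members and of 7 further lists, for spheres on the left and xenografts on the right; filled points have an adjusted p under 0.05 and bars are medians. In spheres the ATF4 list lies farthest to the right, with a median of 1.51, and in xenografts the 9 members lie farthest to the left, with a median of -0.36.

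Over the 9 arrays, NFE2L2 and NQO1 followed each other with a Pearson r of 0.95, and NFE2L2 and GCLM with 0.89, while GCLC and SRXN1 ran opposite (r -0.78). TXNRD1 followed neither NFE2L2 (r 0.14) nor SLC7A11 (r -0.10), and was nearest to SRXN1 (r 0.69). These values describe 9 arrays that fall into 3 groups and share their normalization, and so largely repeat the group differences. Among 5688 genes that varied with an SD of at least 0.3 over the arrays, those most like NFE2L2 were RYK (r 0.995), PRRC1 (0.992) and ARHGAP5 (0.990), and those most like NQO1 were CALHM5 (0.995), MTURN (0.995) and INPP4B (0.992). PLEKHA5 (0.981), PCSK5 (0.969) and CARS1 (0.966) were nearest to SLC7A11, and RAPH1 (0.984), TENM2 (0.982) and AFF4 (0.977) to GCLM. HMOX1 was matched most closely by FAM199X (0.960), SOX11 (0.957) and OCLN (0.956). The nearest to TXNRD1 were CDR2L (0.975), NR2F6 (0.974) and SPTAN1 (0.973), and those nearest to SRXN1 were HPCAL1 (0.976), SLC7A7 (0.972) and AEBP1 (0.970).

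The 8 rhabdomyosarcoma markers examined, MYOD1 and MYOG among them, were all above the median probe set (4.84) in every group. Against adherent cells, 3 of the 8 were lower and 0 higher in spheres, and 2 were higher and 3 lower in xenografts. Beside these and the marker counts below, 13.5% of all genes were higher and 16.3% lower in spheres. In xenografts 12.6% of all genes were higher and 14.3% lower. Arrays of the same group had r from 0.9903 to 0.9977. For ACTB, the 3′ control probe set minus the 5′ one, a value that grows with RNA degradation or short cDNA, was 3.20 ± 0.09 (SD, n = 3) in spheres, 2.39 ± 0.30 in adherent cells and 2.48 ± 0.23 in xenografts. That of GAPDH was 0.62 ± 0.05, 0.54 ± 0.13 and 0.53 ± 0.11. The ACTB values of spheres did not overlap those of the other groups, with a two-sided exact permutation p of 0.1, the smallest that 3 against 3 arrays can give. In xenografts 5 of 7 fibroblast markers were higher and 1 lower than in adherent cells, and their mean level was 7.07 to 7.41 against 6.40 to 6.55. Of 7 measured macrophage and leukocyte markers 2 were higher, and 6 of the 7 were below the median probe set. Higher levels in xenografts were also called for 1 of 5 endothelial markers, 2 of 7 muscle markers (with 1 lower) and 1 of 2 red blood cell markers. The part of RNA quality and of host cells in the member differences was not tested.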

How the data were processed

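The authors hybridised RNA of 9 samples to Affymetrix U133 Plus 2.0 arrays and normalized them together by RMA. The version of RMA is not given in the sources used here. The deposited values are log2 RMA values per probe set, with array medians from 4.78 to 4.87. RMA draws the distributions of the arrays together, so a shift shared by most genes would be removed. Precision is limited by the number of arrays. The zero-transformation to adherent cells in the study's methods is not part of these values.

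After 62 control probe sets were set aside, 54613 entered 1 fit with lmFit and eBayes of limma 3.58.1 (R 4.3.3; 1 coefficient per group, all 9 arrays, 6 residual degrees of freedom, two-sided). P-values were adjusted by Benjamini-Hochberg over all 54613 probe sets, and intervals are at 95%. The script was tested on simulated data. Symbols came from the array annotation: 41091 probe sets had 1 symbol, 1801 several and 11721 none. RefSeq promoters matched 7 of the 9 members.

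The members, the 7 lists and the tests were chosen with earlier results of these data known. The text names all 9 members with all probe sets, up to 4 called genes of each list with the largest difference from adherent cells, and the 3 genes most like each member called. PHGDH, ASNS, KEAP1, RBX1, BACH1 and the markers named stand outside that rule and were chosen after their values were seen. The alternatives were quantile normalization, median centring, brighter probe sets only, only the groups compared, array weights, robust estimation with a variance trend, a block for the replicate number, the unpaired t-test that the methods name, with no array test stated (adjusted and unadjusted), a 2-fold minimum, each array left out, and other ways to represent a gene by its probe sets.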

Additional observations from a re-analysis of the deposited data

Results flagged for a closer look

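At 11 probe sets of 6 genes, the change from adherent cells to xenografts differed from that to spheres. The test is limma's comparison of xenografts with spheres, in which the adherent arrays cancel. NFE2L2 differed by -0.72 at 201146_at (adjusted p = 0.000299) and by -0.62 at 1567013_at (adjusted p = 0.000564). HMOX1 differed by -0.32 (adjusted p = 0.0428), a call that most alternatives lose. NQO1 differed by -1.38 at 210519_s_at (adjusted p = 1.67e-06), -0.75 at 201468_s_at (adjusted p = 0.0014) and -0.82 at 201467_s_at (adjusted p = 0.0012). GCLM differed by -0.52 at 203925_at (adjusted p = 0.0245), a call lost in 8 of 19 alternatives. The other GCLM probe sets were not called, at -0.22 for 234986_at (adjusted p = 0.441) and -0.35 for 236140_at (adjusted p = 0.205). SLC7A11 differed by -3.16 at 209921_at (adjusted p = 0.00215), -3.23 at 217678_at (adjusted p = 0.000313) and -0.60 at 207528_s_at (adjusted p = 0.00153). GCLC at 202922_at was the only one of the 11 with a positive value, 0.60 (adjusted p = 0.0158, and 0.37 without xenograft replicate 1). Across all probe sets 39.1% were called in this comparison.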

How the results depend on the processing

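The count of 3 members called in spheres against adherent cells was 5 with array weights, 5 by the methods' t-test without adjustment and 0 at 2-fold or more, and ranged from 1 to 4 with each array left out. It was 1 without adherent replicate 3, sphere replicate 2 or sphere replicate 3. The 5 called in xenografts against adherent cells became 3 after quantile normalization, 3 with only the groups compared, 3 with the replicate number as a block, 1 by the t-test after adjustment and 0 at 2-fold or more, and ranged from 2 to 6 with each array left out (3 without adherent replicate 1, sphere replicate 3 or xenograft replicate 3, and 2 without adherent replicate 2 or 3). The 5 called in xenografts against spheres became 3 with only the groups compared, 2 by the adjusted t-test and 2 at 2-fold or more, and ranged from 3 to 5 with each array left out (3 without sphere replicate 2 or 3). The replicate block gave 4 members in each comparison with spheres. Under the block KEAP1 also lost its call in xenografts (adjusted p = 0.0631). The numbers share no stated source: same-number arrays had correlations of their deviations from -0.177 to 0.183, and only 2 of 9 arrays were closest, outside their group, to an array of their own number. Values near 0 changed sign, none of them called: NQO1 201468_s_at in spheres to -0.04 (quantile normalization) and -0.03 (median centring), and under quantile normalization GCLC 1555330_at in xenografts to 0.00, and TXNRD1 in xenografts against spheres to 0.01 (201266_at) and -0.01 (1561080_at). With arrays left out, in spheres HMOX1 ranged from -0.05 to 0.02, NQO1 201468_s_at from -0.09 to 0.07, GCLC 202923_s_at from -0.02 to 0.12 and GCLM 234986_at from -0.17 to 0.10. GCLC 1555330_at in xenografts against adherent cells ranged from -0.02 to 0.24. In xenografts against spheres NFE2L2 1567015_at ranged from -0.21 to 0.07, GCLM 234986_at from -0.51 to 0.02, TXNRD1 201266_at from -0.10 to 0.02 and TXNRD1 1561080_at from -0.03 to 0.06. Of 1131 probe set values under the alternatives, 982 kept their direction and their side of the threshold, 100 lost a call, 33 gained one and 16 changed sign, and 45 of 504 list counts moved by more than 1.5 times. Only values of probe sets called at first could lose a call. These were 5, 9 and 11 of the 20 in the 3 comparisons, so most of the 1131 values had no call to lose. Dim probe sets such as TXNRD1 1561080_at lie near the lower end of the array's range, where small changes may go undetected. The cause of these changes was not tested.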
